A study of Mus musculus with 24 samples.

Results

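The surrogate light chain and recombination genes are 7 genes of early B cell development, chosen by name: Vpreb1, Vpreb2, Igll1, Vpreb3, Rag1, Rag2 and Dntt. All 7 were present among the 24421 genes of the deposited count table, and all 7 passed the filter on low counts that left 12850 genes for testing. They were followed through 3 B cell populations from mouse bone marrow and 2 Vhl genotypes. There were 8 mice, and each gave 3 libraries: pro-B and pre-B cells sorted together (proBpreB), immature B cells and mature B cells. Of these mice, 4 were flox/flox for Vhl and 4 were flox/WT, which gave 6 groups of 4 libraries. Every mouse, the flox/WT controls included, was Mb1-Cre +/WT. Mb1 is another name for Cd79a, so the Cre recombinase is made in B lineage cells and a floxed Vhl allele can be lost from the pro-B stage on. Nothing in the sources used here states the sorting gates or the age and sex of the mice.

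A developing B cell first joins the segments of its heavy chain gene and tests the product before it rearranges a light chain. Rag1 and Rag2 form the recombinase that cuts the segments, and Dntt encodes terminal transferase, which adds untemplated bases at the joints, mainly of the heavy chain. Vpreb1, Vpreb2 and Igll1 (lambda5) encode the surrogate light chain, which pairs with a new heavy chain to form the pre-B cell receptor and is shut off once that receptor has signalled. Vpreb3 is a relative of the VpreB proteins that binds newly made heavy chain inside the cell and is not a part of the surface receptor. Vhl encodes the subunit of a ubiquitin ligase that marks hypoxia-inducible factor for destruction.

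Vpreb1 lies on chromosome 16 at 16868401 to 16869255 (GRCm38, minus strand), with Igll1 on the same strand at 16860671 to 16863985, 4415 bases away. Vpreb2 lies on the plus strand of that chromosome at 17979445 to 17981274, 1110189 bases from Vpreb1. The 426-base coding sequences of Vpreb1 and Vpreb2 differed at 9 bases (97.9% identical), and their longest identical run was 196 bases. Nothing in the sources used here states how reads that match both genes were counted, so the division of counts between Vpreb1 and Vpreb2 is uncertain. By the same measure, aligned coding bases of Vpreb1 were 55.3% identical to Igll1 and 52.3% identical to Vpreb3. Vpreb3 is on chromosome 10 at 75943024 to 75949657 and Dntt on chromosome 19 at 41029275 to 41059525, both on the plus strand. Rag1, at 101638252 to 101649532 on the minus strand of chromosome 2, and Rag2, at 101624712 to 101632528 on the plus strand, are convergent neighbours 5723 bases apart. Exons of the minus-strand gene B230118H07Rik cover 80 bases of Rag1 and 208 bases of Rag2, and exons of Top3b cover 108 bases of Vpreb1 on the other strand. Whether counting used the strand is not stated, so reads of these shared stretches cannot be told apart.

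The likeness of Vpreb1 and Vpreb2 extends to bases outside the exons of their GENCODE coding transcripts. The stretches below are shown because the 3 surrogate light chain genes moved together, and they come from RefSeq's GRCm38.p6 promoter table, 5′ to 3′ on the strand of each gene. Capitals mark an E-box, CAGGTG or its reverse complement CACCTG, a motif bound by E2A, a transcription factor that B cell development needs. The Vpreb1 stretch is chr16:16869256-16869361 (minus strand), the Vpreb2 stretch chr16:17980315-17980420 (plus strand) and the Igll1 stretch chr16:16863986-16864091 (minus strand), each 106 bases of GRCm38.
Vpreb1: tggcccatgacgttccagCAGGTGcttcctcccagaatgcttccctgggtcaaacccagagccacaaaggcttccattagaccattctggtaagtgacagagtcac
Vpreb2: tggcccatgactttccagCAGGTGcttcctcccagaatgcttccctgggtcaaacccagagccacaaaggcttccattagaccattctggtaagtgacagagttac
Igll1: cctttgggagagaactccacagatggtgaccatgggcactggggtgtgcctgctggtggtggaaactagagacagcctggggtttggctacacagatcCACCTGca
The Vpreb1 and Vpreb2 stretches were identical at 104 of 106 bases, with 91 of them in 1 run. In the 250 bases before the start that the promoter table uses, the E-box was found in 4 of the 7 genes, read on both strands, against 17.2% of 32851 promoters of that length. It lay 88 bases before that start in Vpreb1, 232 in Vpreb2, 8 in Igll1 and 135 in Rag1. For Vpreb2 the promoter table uses a start at 17980565 and GENCODE has it at 17980428, so the E-box lay 95 bases before the GENCODE start. The Vpreb2 stretch falls inside the wider RefSeq gene span given above, and the Vpreb1 stretch inside the wider GENCODE gene span, 16868403 to 16870843. The window searched for Vpreb3, chr10:75948050-75948299, also lies inside the gene span given above for Vpreb3. Of the other motifs searched on both strands, TGGGAA (Ikaros) was in 2 of the 7 windows and 21.6% of all promoters, and GAGGAA (PU.1) in 3 and 23.3%. The EBF1 palindrome and the motifs GTAAACA (FOXO), ACGTG and GCGTG (both cores of the hypoxia response element) were in 0 of the 7 windows and in 0.779%, 3.17%, 16.6% and 28.2% of promoters. The E-box and GAGGAA matches of Vpreb1 and Vpreb2 lie in the stretch that the 2 genes share, so they are not independent. All these matches describe letters in a window and are not measured binding sites.

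Libraries held 7850186 to 11863949 counts, and a limit of 3 counts equalled 0.231 to 0.419 CPM. CPM here is a count scaled by the TMM-adjusted library total. Levels below are CPM, as mean ± SD over 4 mice. Vhl served as the check of the genotype labels. It measured 7.97 to 15.1 CPM in flox/flox and 23.0 to 27.9 CPM in flox/WT proBpreB libraries, 3.07 to 8.16 and 26.7 to 47.9 CPM in immature, and 5.39 to 9.79 and 26.3 to 32.4 CPM in mature libraries, with no overlap in any population. The populations were also checked against marker lists. Of 14 pro-B and pre-B markers, 12 fell from proBpreB to immature cells in each genotype, and of 15 mature B cell markers, 15 rose in flox/WT and 14 in flox/flox mice. Markers of other cells were not at 0. Of 10 plasmacytoid dendritic cell markers, 8 fell and 1 rose from proBpreB to immature cells in each genotype. In flox/WT mice their sum had a median of 1559, 3214 and 2193 CPM in proBpreB, immature and mature libraries. In flox/WT proBpreB, immature and mature libraries the 9 neutrophil and monocyte markers summed to a median of 3288, 5062 and 8385 CPM, the 9 erythroid markers to 409, 239 and 261 CPM, the 10 natural killer cell markers to 212, 19.8 and 28.7 CPM and the 10 T cell markers to 120, 48.4 and 55.5 CPM.

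From proBpreB to immature cells, 6 of the 7 genes fell steeply in both genotypes, while Vpreb3 fell modestly in flox/WT and rose in flox/flox mice. In flox/WT mice all 7 fell, with no overlap between the populations. The share of all genes that fell was 25.4%, and the share that fell without overlap 22.8%. In flox/flox mice 6 fell and 1 rose, against 27.2% and 28.7% of all genes, and the 7 groups did not overlap (27.3% of all genes lower and 27.5% higher without overlap). The populations are sorted bulk samples, in which fewer cells of a type and less RNA per cell cannot be told apart.

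**Figure D1:**
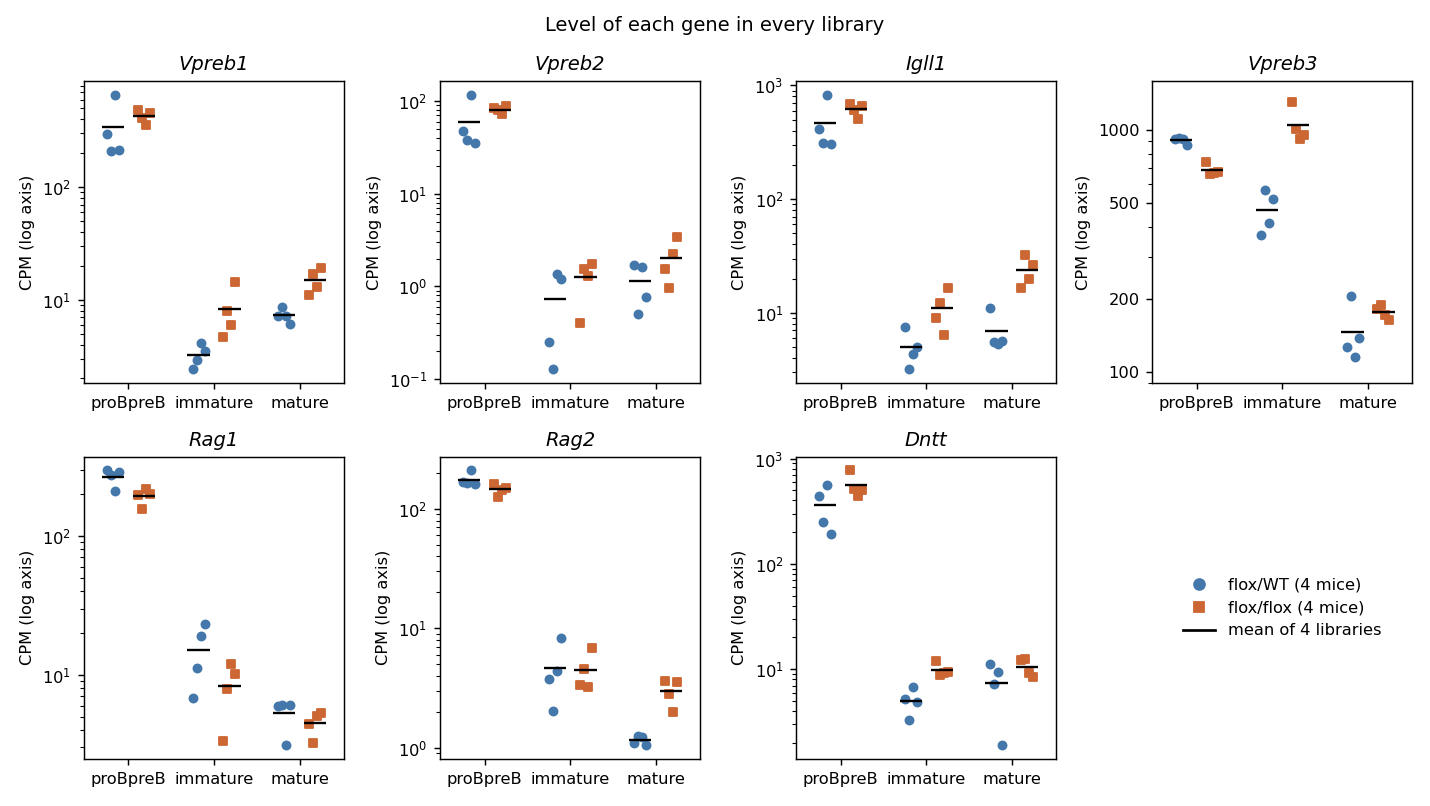
Level of the 7 genes in each of 24 libraries, in CPM on a log axis, by population; circles are flox/WT and squares flox/flox mice, and black lines are means of 4 libraries. In 6 panels the proBpreB libraries stand far above the rest, and in the Vpreb3 panel the immature flox/flox libraries, at 925 to 1305 CPM, overlap the flox/WT proBpreB libraries and lie above the flox/flox ones.

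Vpreb1 measured 295, 208, 662 and 215 CPM in the flox/WT proBpreB libraries, replicates 1 to 4, and 480, 409, 358 and 460 CPM in flox/flox. In immature libraries it measured 2.40 to 4.12 CPM (19 to 49 counts) in flox/WT mice and 4.66 to 14.4 CPM (35 to 115 counts) in flox/flox. The flox/WT proBpreB values were uneven, with replicate 3 above every flox/flox library and the other 3 below every one. The fall to the immature stage was -6.70 on the log2 scale in flox/WT (SE 0.41, edgeR adjusted p = 9.56e-12) and -5.69 in flox/flox mice (SE 0.38, adjusted p = 3.1e-11), lower in 4 of 4 mice of each genotype.

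Igll1 followed Vpreb1 closely. It measured 411, 312, 826 and 304 CPM in flox/WT proBpreB libraries and 686, 608, 502 and 657 CPM in flox/flox, again with flox/WT replicate 3 on top and the other 3 below every flox/flox library. Its fall to the immature stage was -6.53 (SE 0.40) in flox/WT and -5.80 (SE 0.38) in flox/flox mice on the log2 scale (edgeR adjusted p = 1.43e-11 and 3.1e-11). The count ratio of Vpreb1 to Igll1 in proBpreB libraries was 0.666 to 0.801 in flox/WT and 0.673 to 0.713 in flox/flox mice, so it varied far less than either gene.

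Vpreb2 was the least abundant of the 3. Per kilobase of its longest coding transcript it measured 78.2 ± 50.8 CPM in flox/WT proBpreB cells, where Vpreb1 measured 450 ± 281 and Igll1 532 ± 284 CPM per kilobase. The proBpreB libraries held 47.8, 37.7, 117 and 35.2 CPM of Vpreb2 in flox/WT mice and 83.2, 79.4, 72.6 and 88.6 CPM in flox/flox, the same arrangement as for Vpreb1. Later populations held 1 to 28 counts per library, near the limit of 3 counts in the lowest. The fall to the immature stage was -6.17 (SE 0.48) in flox/WT and -6.00 (SE 0.47) in flox/flox mice on the log2 scale. Vpreb1 to Vpreb2 count ratios in proBpreB libraries lay between 5.51 and 6.16 in flox/WT and between 4.94 and 5.77 in flox/flox mice.

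Dntt, the terminal transferase, measured 445, 247, 559 and 193 CPM in flox/WT proBpreB libraries and 770, 509, 436 and 506 CPM in flox/flox. The groups overlapped, with flox/WT replicates 2 and 4 the lowest. In immature libraries it measured 3.30 to 6.73 CPM in flox/WT mice and 8.79 to 12.0 CPM in flox/flox mice. Its fall between the stages was -6.14 (SE 0.42) and -5.81 (SE 0.40) on the log2 scale.

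The recombinase genes had smaller log2 changes. Rag1 went from 296, 273, 212 and 288 CPM in flox/WT proBpreB libraries to 6.82, 11.2, 19.0 and 23.3 CPM in immature libraries, and in flox/flox mice from 197, 155, 217 and 202 CPM to 3.33, 7.95, 11.9 and 10.2 CPM. Replicate 3, the highest flox/WT proBpreB library for Rag2 and the surrogate light chain genes, was the lowest for Rag1. Log2 changes of Rag1 were -4.12 (SE 0.30) in flox/WT and -4.52 (SE 0.31) in flox/flox mice. Rag2 went from 168, 165, 210 and 162 CPM to 3.79, 2.03, 4.37 and 8.24 CPM in flox/WT, and from 162, 127, 144 and 150 CPM to 3.33, 4.60, 3.22 and 6.90 CPM in the flox/flox libraries. Its log2 changes were -5.21 (SE 0.24) and -5.01 (SE 0.25). Per kilobase of transcript the partners were close in proBpreB cells, at 40.5 ± 5.80 CPM for Rag1 and 51.5 ± 6.63 CPM for Rag2 in flox/WT, and 29.2 ± 4.01 and 42.6 ± 4.17 CPM in flox/flox mice.

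Vpreb3 stood apart. In flox/WT mice it measured 924, 932, 919 and 867 CPM in proBpreB, 370, 566, 412 and 522 CPM in immature and 127, 206, 115 and 139 CPM in mature libraries, replicates 1 to 4, so that it went down at each step in 4 of 4 mice. In flox/flox mice it measured 740, 663, 664 and 672 CPM in proBpreB, 1305, 1017, 925 and 960 CPM in immature and 182, 190, 172 and 164 CPM in mature libraries, going up and then down in 4 of 4 mice. From proBpreB to immature cells the log2 change was -0.96 in flox/WT (SE 0.14, edgeR adjusted p = 2.68e-06) and 0.62 in flox/flox mice (SE 0.14, adjusted p = 0.000609). The genotype effect differed between the 2 stages by 1.58 on the log2 scale (SE 0.20, adjusted p = 7.71e-06), a test passed by 10.9% of all genes and, among the 7 members, by Vpreb3 alone. That difference stayed between 1.46 and 1.68 in 23 alternative analyses.

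**Figure D2:**
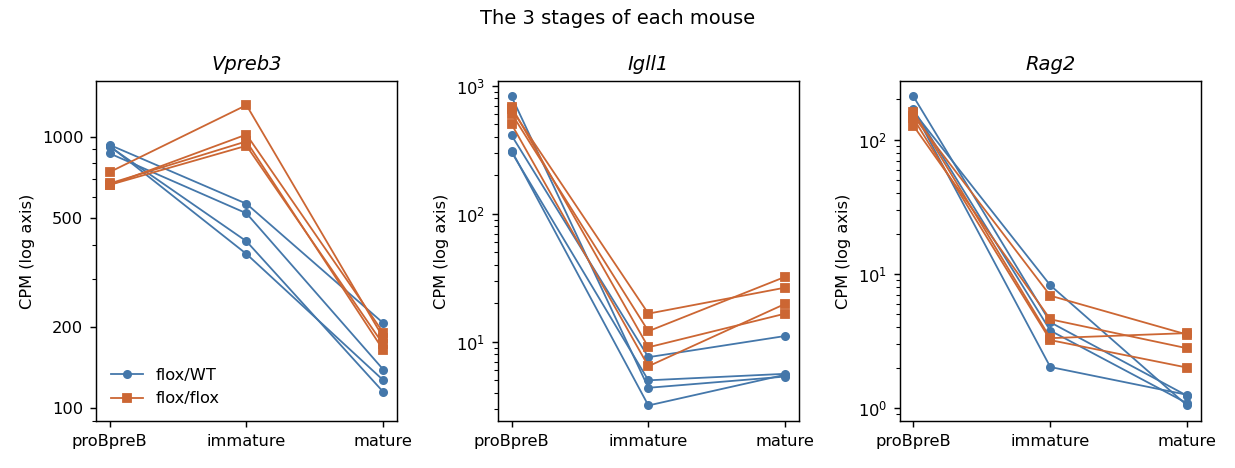
CPM on a log axis for Vpreb3, Igll1 and Rag2 across the populations, with 1 line per mouse; circles are flox/WT and squares flox/flox. The 4 flox/flox lines of Vpreb3 peak at the immature stage while the flox/WT lines descend, and at the mature stage the flox/flox lines of Igll1 and Rag2 lie above the flox/WT lines.

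Ordered by mean, Vpreb3 was highest in immature flox/flox cells (1052 ± 173 CPM), followed by proBpreB flox/WT (911 ± 29.8 CPM), proBpreB flox/flox (685 ± 37.1 CPM), immature flox/WT (467 ± 91.9 CPM), mature flox/flox (177 ± 11.4 CPM) and mature flox/WT cells (147 ± 40.7 CPM). Libraries of the first pair in that order overlapped, as did those of the last pair. Per kilobase of transcript it was the most abundant of the 7 genes, at 1249 ± 40.9 CPM in flox/WT proBpreB cells.

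From immature to mature cells the genes parted. In flox/WT mice 1 of the 7 rose, Vpreb1, and 3 fell, Vpreb3, Rag1 and Rag2 (15.6% of all genes rose and 17.1% fell). In flox/flox mice 1 rose, Igll1, and 1 fell, Vpreb3 (12.9% and 13.6% of all genes). A call in 1 genotype alone is not a difference between genotypes. The direct test of that difference at this step did not pass for Vpreb1, Igll1 or Rag1. It gave -0.27, 0.65 and 0.62 on the log2 scale (edgeR adjusted p = 0.86, 0.564 and 0.526). Vpreb1 rose from a low level in flox/WT mice, from 3.24 ± 0.744 to 7.28 ± 1.06 CPM (log2 change 1.13, SE 0.42, edgeR adjusted p = 0.0457), higher in 4 of 4 mice. This call was lost when any 1 of the 8 libraries was left out (adjusted p 0.0544 to 0.114). In flox/flox mice Vpreb1 changed by 0.86 (SE 0.36, adjusted p = 0.086), also higher in 4 of 4 mice. It passed in 3 of 15 alternatives. These were the mouse as a block (adjusted p = 0.0166), only the groups compared (0.0476) and omission of immature flox/flox replicate 4 (0.0121).

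Igll1 went from 11.0 ± 4.35 to 23.8 ± 6.96 CPM between these stages in flox/flox mice (log2 change 1.11, SE 0.35, edgeR adjusted p = 0.0219), higher in 4 of 4. Without immature replicate 1 or 3 or mature replicate 2 or 4 of flox/flox the adjusted p was 0.0606, 0.0748, 0.0793 and 0.0528. In flox/WT mice Igll1 changed by 0.46 (SE 0.41, adjusted p = 0.42). The fall of Vpreb3 was -1.67 in flox/WT (SE 0.15) and -2.57 in flox/flox mice (SE 0.15) on the log2 scale. This difference of -0.90 between the genotypes (SE 0.20) passed the test (edgeR adjusted p = 0.00435, as did 7.74% of all genes).

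Both recombinase genes fell further in flox/WT mice, Rag1 to 5.91, 6.04, 3.11 and 6.09 CPM (log2 change -1.53, SE 0.32, edgeR adjusted p = 0.000747) and Rag2 to 1.09, 1.26, 1.24 and 1.05 CPM, which is 9 to 11 counts (log2 change -2.03, SE 0.34, adjusted p = 3.05e-05). In flox/flox mice the values were -0.91 (SE 0.35, adjusted p = 0.0615) for Rag1 and -0.60 (SE 0.30, adjusted p = 0.143) for Rag2, with 3 of 4 mice lower for each. The Rag1 value passed in 2 of 15 alternatives. It was -0.89 in DESeq2 (adjusted p = 0.0452) and -1.17 without immature flox/flox replicate 1 (adjusted p = 0.00778). Dntt changed by 0.50 and 0.10 on the log2 scale in flox/WT and flox/flox mice and passed in neither.

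Set against the proBpreB library of the same mouse, the mature libraries of flox/WT mice kept 0.662 ± 0.0722% of Rag2, 1.74 ± 0.843% of Igll1, 1.95 ± 0.331% of Rag1, 2.01 ± 0.857% of Dntt, 2.10 ± 1.02% of Vpreb2, 2.63 ± 1.27% of Vpreb1 and 16.1 ± 4.26% of Vpreb3. In flox/flox mice the Rag2 share was 2.05 ± 0.442%, the Igll1 share 3.92 ± 1.17% and the Vpreb3 share 25.9 ± 1.97%. The flox/flox shares of Vpreb1, Vpreb2, Rag1 and Dntt were 3.56 ± 0.862%, 2.50 ± 1.19%, 2.31 ± 0.221% and 1.95 ± 0.398%. Libraries of the genotypes did not overlap in the Rag2 share or the Vpreb3 share. How often that occurs among all genes was not computed, and the shares themselves were not tested. Immature libraries kept 51.4 ± 10.6% of Vpreb3 in flox/WT and 153 ± 16.7% in flox/flox mice, while for the other 6 genes the mean shares lay between 1.12% and 5.87%. All 7 genes were lower in mature than in proBpreB cells in both genotypes, with no overlap, against 29.6% of all genes in flox/WT and 29.5% in flox/flox mice. Without overlap the shares of all genes were 25.3% and 28.2%.

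**Figure D3:**
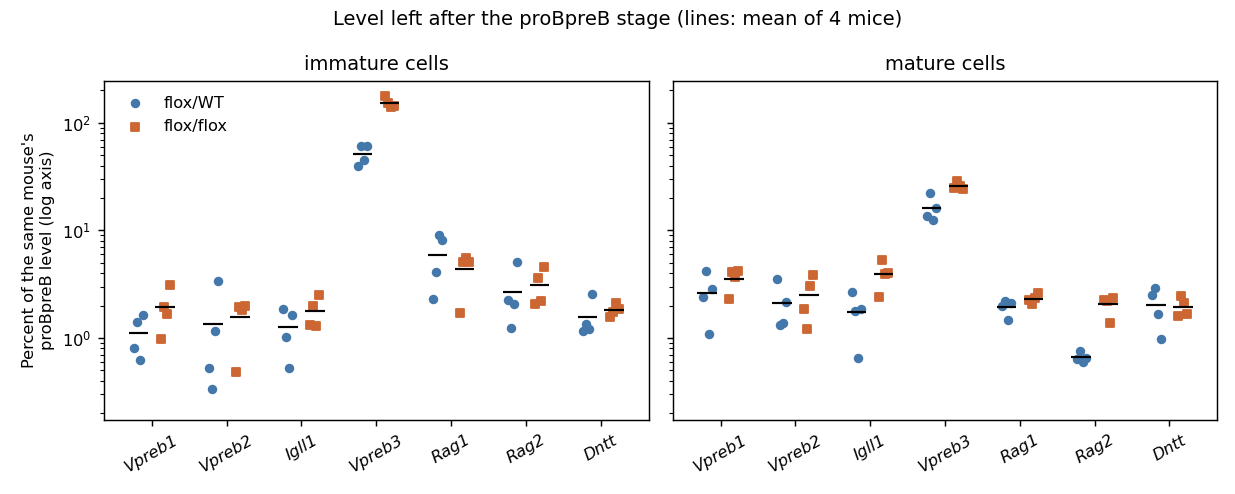
Level in immature (left) and mature (right) libraries as percent of the proBpreB level of the same mouse, on a log axis; circles are flox/WT and squares flox/flox mice, and lines are means of 4 mice. Vpreb3 keeps the highest share in both panels, with means of 51.4% and 153% in immature cells, and Rag2 in mature flox/WT cells has the lowest mean, 0.662%.

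Between genotypes, 0 of the 7 genes passed the test in proBpreB cells. Of all genes, 3.38% were called higher and 2.75% lower there. At an unadjusted p under 0.05 edgeR gave 1 gene, Vpreb3. With adjustment, at the threshold of the main test, limma-voom called 1 gene, Dntt, while DESeq2 called 0. Vpreb3 was lower in every flox/flox library (log2 change -0.41, SE 0.14, edgeR adjusted p = 0.0904), as was Rag2 (-0.27, SE 0.19, adjusted p = 0.479). Groups lay apart in the lower direction for 7.60% of all genes. With only the 8 proBpreB libraries in the fit, Vpreb3 passed (adjusted p = 0.0145), and so did Rag1 at -0.48 (adjusted p = 0.0456).

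The surrogate light chain genes in proBpreB cells hinged on 1 library. With all 8 libraries the log2 differences were 0.31 for Vpreb1, 0.45 for Vpreb2 and 0.40 for Igll1 (edgeR adjusted p = 0.636, 0.504 and 0.511). Without flox/WT replicate 3 they were 0.83 (adjusted p = 0.0173), 1.01 (adjusted p = 0.0321) and 0.84 (adjusted p = 0.0485), all higher in flox/flox. For Dntt the log2 difference was 0.62 (SE 0.32, adjusted p = 0.308).

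In immature cells 4 of the 7 genes differed between genotypes. Vpreb1, Igll1 and Vpreb3 were higher in flox/flox mice and Rag1 was lower, where 10.2% of all genes were called higher and 10.5% lower. Vpreb3 had the firmest difference, 2.25-fold (log2 1.17, SE 0.14, edgeR adjusted p = 5.01e-07), and it stayed between 1.05 and 1.27 in all 15 alternatives. Its 4 flox/flox libraries, at 925 to 1305 CPM, lay above the 4 flox/WT libraries, at 370 to 566 CPM. Vpreb1 and Dntt also did not overlap between genotypes, in the higher direction, against 11.4% of all genes.

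The other 3 calls were close to the threshold. Vpreb1 was higher by 1.32 on the log2 scale (SE 0.42, edgeR adjusted p = 0.0296), a call lost in 7 of 15 alternatives, among them each omission of replicates 1, 2 and 4 of flox/WT and 2 and 4 of flox/flox (adjusted p = 0.0758, 0.0679, 0.0588, 0.0549 and 0.144). Igll1 measured 7.58, 3.18, 4.37 and 5.00 CPM in flox/WT mice and 9.06, 12.1, 6.44 and 16.6 CPM in flox/flox. The groups overlapped, since flox/WT replicate 1 exceeded flox/flox replicate 3. Its difference of 1.14 (SE 0.39, adjusted p = 0.0447) was lost in 9 of 15 alternatives. These were no filter on low counts (adjusted p = 0.0857), limma-voom (adjusted p = 0.131), the replicate number as a block (adjusted p = 0.068) and the omission of replicate 1, 2 or 4 of flox/flox and 2, 3 or 4 of flox/WT (adjusted p = 0.0519, 0.0968, 0.155, 0.12, 0.108 and 0.0891). Rag1 was lower by -0.87 (SE 0.31, adjusted p = 0.0499), its groups overlapped, and the call was lost in 10 of 15 alternatives, among them each omission of replicates 3 and 4 of flox/WT and 1, 2 and 4 of flox/flox (adjusted p = 0.143, 0.215, 0.144, 0.107 and 0.0573).

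Dntt was higher in every flox/flox than in every flox/WT immature library and missed the threshold (log2 difference 0.95, SE 0.42, edgeR adjusted p = 0.121). It passed in 2 of 15 alternatives, the replicate number as a block (adjusted p = 0.0436) and only the groups compared (0.011). Rag2 gave -0.07 (SE 0.27, adjusted p = 0.896) and Vpreb2 0.62 (SE 0.68, adjusted p = 0.574). The Rag1 to Rag2 count ratio was 1.80 to 5.50 in flox/WT and 1.00 to 3.70 in flox/flox immature libraries (exact permutation p = 0.143, 12 ratio tests, adjusted p = 0.286).

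**Figure D4:**
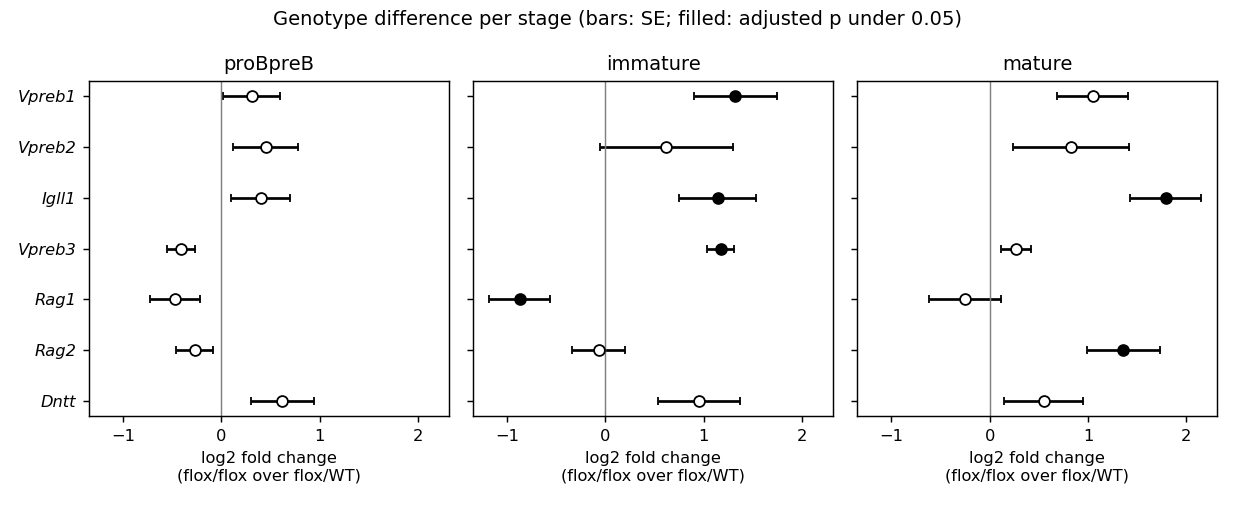
Genotype difference of each gene in each population, as the edgeR log2 fold change of flox/flox over flox/WT with its SE as bars; filled points passed an adjusted p of 0.05. Vpreb3 has the shortest bars and moves from -0.41 in proBpreB to 1.17 in immature and 0.27 in mature cells.

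In mature cells 2 of the 7 genes were higher in flox/flox mice and 0 were lower, against 9.69% and 6.62% of all genes. Igll1 measured 11.1, 5.53, 5.35 and 5.62 CPM in flox/WT mice and 16.6, 32.2, 19.8 and 26.5 CPM in flox/flox, with no overlap (3.45-fold, log2 1.79, SE 0.36, edgeR adjusted p = 0.00152). It passed in all 15 alternatives, at 1.60 to 2.11. Rag2 measured 1.09 to 1.26 CPM in flox/WT mice and 3.63, 2.80, 2.01 and 3.54 CPM in flox/flox, also with no overlap (2.57-fold, log2 1.36, SE 0.37, adjusted p = 0.0108). That is 9 to 11 counts against 19 to 33 counts per library, and in limma-voom the adjusted p was 0.0751. Vpreb1 was the third without overlap, at 6.09 to 8.68 and 11.1 to 19.2 CPM (log2 1.05, SE 0.36, adjusted p = 0.0524). It passed in 4 of 15 alternatives, which were the stricter filter (adjusted p = 0.0449), only the groups compared (0.00812), DESeq2 (0.0288) and omission of flox/flox replicate 1 (0.0491). In that direction 9.01% of all genes lay apart.

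Rag1, the partner of Rag2, was not called in mature cells. It measured 5.29 ± 1.45 CPM in flox/WT mice and 4.49 ± 0.917 CPM in flox/flox (log2 difference -0.25, SE 0.37, edgeR adjusted p = 0.701), and libraries overlapped. The genotype effect on Rag2 was larger by 1.64 in mature than in proBpreB cells (SE 0.41, adjusted p = 0.0242), a test passed by 3.06% of all genes. This call was lost in 4 of 23 alternatives. Its adjusted p was 0.0806 in limma-voom, and 0.0676, 0.0566 and 0.0632 on omission of mature replicate 1 or 4 of flox/flox and replicate 4 of flox/WT. Against immature cells the genotype effect on Rag2 was larger by 1.43 (SE 0.46, adjusted p = 0.0551). That difference passed in 5 of 23 alternatives, DESeq2 among them (adjusted p = 0.0136). The others were omission of immature flox/WT replicate 1 or 2, immature flox/flox replicate 4 or mature flox/flox replicate 3 (adjusted p = 0.0469, 0.00854, 0.0157 and 0.0393). The Rag1 to Rag2 count ratio in mature cells, where 1 library had under 10 counts of Rag2, was 2.50 to 5.82 in flox/WT and 1.15 to 2.53 in flox/flox mice. This difference of -1.55 on the log2 scale gave an exact permutation p = 0.0571 (0.286 adjusted over 15 ratio tests at a minimum of 1 count).

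Vpreb3, Dntt and Vpreb2 gave log2 differences of 0.27, 0.55 and 0.83 in mature cells and did not pass (edgeR adjusted p = 0.212, 0.387 and 0.369). Without mature flox/WT replicate 2, the highest of its group, Vpreb3 passed at 0.48 (adjusted p = 0.0134). Its genotype effect was larger by 0.68 in mature than in proBpreB cells (SE 0.20, adjusted p = 0.064). This difference passed in 5 of 23 alternatives. Among them were the mouse as a block (adjusted p = 0.0113), DESeq2 (0.0265), limma-voom (0.0252) and only the groups compared (0.0491). The last was omission of mature flox/WT replicate 2 (0.89, adjusted p = 0.00399). The corresponding difference for Igll1 was 1.38 (SE 0.47, adjusted p = 0.129). In mature cells the Vpreb3 to Igll1 count ratio was 11.4 to 37.2 in flox/WT and 5.91 to 10.9 in flox/flox mice (exact permutation p = 0.0286, the smallest that 4 against 4 can give, and 0.286 adjusted over 12 ratio tests).

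**Figure D5:**
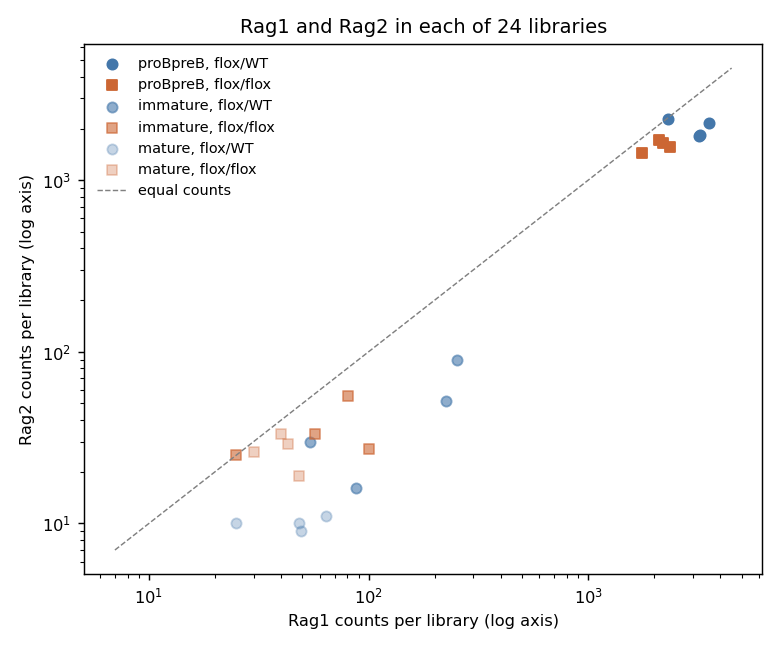
Counts of Rag1 and Rag2 in each of 24 libraries, both on log axes, with a dashed line at equal counts; circles are flox/WT, squares flox/flox, and paler points are later stages. The 4 mature flox/WT libraries, at 9 to 11 Rag2 counts, lie below the 4 mature flox/flox libraries, at 19 to 33, over a like range of Rag1 counts.

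Other markers moved beside the differences at low levels. In mature cells 6 of 14 pro-B and pre-B markers were higher and 0 lower in flox/flox mice (median log2 difference 0.83, all genes 0.01), and their summed level was 407 to 605 CPM in flox/WT mice and 823 to 1071 CPM in flox/flox libraries. Among them Lef1, a transcription factor of early lymphocytes, rose by 2.15, the cytokine receptor gene Flt3 by 1.56, Il7r, the receptor for the pre-B growth factor IL-7, by 0.94 and Cd24a by 0.84. In immature cells 4 were higher and 2 lower (median 0.62, all genes 0), with Cd93 at 1.07, Flt3 at 0.97, Bst1 at 0.96 and Spn at -0.70, and sums of 1774 to 2199 and 2101 to 2457 CPM. Cd24a alone held most of these sums. Its mean was 396 and 707 CPM in mature flox/WT and flox/flox cells, and 1649 and 1898 CPM in immature ones. In flox/WT mice Cd24a was lower in proBpreB than in immature cells, at 1095 CPM. In proBpreB cells 0 of the 14 were called. The part of these markers in the differences of the 7 genes was not tested.

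Markers of other lineages also moved. The 9 erythroid markers summed to 218 to 242 CPM in flox/WT mice and 375 to 506 CPM in flox/flox immature libraries, with 3 called higher, among them Alas2 by 1.58 and Car2 by 1.23 on the log2 scale, and had medians of 261 and 561 CPM in mature libraries (3 higher). The 9 neutrophil and monocyte markers summed to 4350 to 5380 and 6824 to 9210 CPM in immature libraries, with S100a8 higher by 0.89 and S100a9 by 0.77. In mature libraries these sums were 7573 to 10299 and 7619 to 12293 CPM, with 0 called. The 10 natural killer cell markers summed to 24.6 to 32.9 and 46.0 to 66.7 CPM in mature libraries (3 higher) and to 14.0 to 26.9 and 22.5 to 31.7 CPM in immature libraries (1 higher). The part of these markers in the results was not tested. T cell markers were higher in flox/flox mice in 1, 0 and 0 of 10 cases in the 3 populations and lower in 0, 1 and 0. Plasma cell markers were higher in 0, 1 and 1 of 6 and lower in 1, 3 and 1. Plasmacytoid dendritic cell markers were higher in 0, 1 and 1 of 10 and lower in 1, 2 and 3. Mature B cell markers were lower in flox/flox mice in 8, 8 and 4 of 15 cases and higher in 2, 1 and 0.

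A list of 14 genes for end joining, the repair of breaks made by the recombinase, also held the recombinase cofactor Hmgb2. Between genotypes, 0 of the 14 were called in proBpreB cells, 2 were higher and 4 lower in immature cells, and 2 were higher in mature cells (medians -0.09, -0.20 and 0.02, all genes 0 to 0.01). In immature flox/flox cells H2afx, the histone marked at breaks, was lower by -1.74, the recombinase cofactor Hmgb2 by -1.13 and the Ku subunit gene Xrcc5 by -0.57, while Polm, a polymerase of end joining, was higher by 0.50. Of 22 proliferation genes, 22 were lower in the same cells (median -1.51), with Mki67 at -2.86, Cenpf at -2.73, Kif11 at -2.22 and Top2a at -2.21. In mature flox/flox cells 13 of the 22 were higher (median 0.68), with Rrm2 at 1.08, and on the end-joining list Polm rose by 0.63 and Hmgb2 by 0.41.

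From proBpreB to immature cells of flox/WT mice, 8 genes of the end-joining list fell and 5 rose. The falls, led by the Ku gene Xrcc6 at -2.50 and the ligase gene Lig4 at -1.80, were smaller than those of the recombinase genes, and Atm, a kinase that senses breaks, rose by 0.97. The median was -0.63 (all genes 0).

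Of 21 transcription factors of early B cells, 4 were lower and 0 higher in flox/flox proBpreB cells (median -0.28, all genes 0): Tcf12, an E protein, at -0.76, Foxp1 at -0.49, Spi1, which encodes PU.1, at -0.46 and Ikzf3 at -0.43. In immature cells 4 were higher and 1 lower (median 0.15), with Id2, an inhibitor of E proteins, at 0.63, Foxo1, which activates the Rag genes, at 0.62, Bach2 at 0.48 and Lef1 at -0.68. In mature cells 4 were higher and 1 lower (median -0.07), with Lef1 at 2.15, Id2 at 1.04, Myb at 0.83 and Foxo1 at 0.41.

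Partners of the pre-B cell receptor were mostly lower in flox/flox proBpreB cells. Of 15 receptor subunits and signalling genes, 8 were lower and 1 was higher in flox/flox mice (median -0.42, all genes 0). Rasgrp1 gave -1.06, the kinase gene Blk -0.90 and the signalling chain Cd79b -0.83. Cd79a, the locus that carries the Cre in all mice, measured 705 ± 16.8 CPM in flox/WT mice and 467 ± 22.5 CPM in flox/flox proBpreB cells (log2 -0.59, SE 0.11, edgeR adjusted p = 0.000771). In immature cells 3 were lower and 1 higher (median -0.06), with Prkcb at -0.72, Blk at -0.41 and Pik3ap1 at 0.42. In mature cells 5 were lower and 2 higher (median -0.24), with Il7r at 0.94, Blk at -0.59 and Pik3ap1 at 0.58.

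Profiles over the 6 group means of log2 CPM, each centred on its own mean, were compared by root mean square difference as a description. Nearest to Vpreb1 were Vpreb2 (0.21), the ciliary gene Drc7 (0.24) and Igll1 (0.25). Drc7 (0.19) and Dntt (0.20) were nearest to Vpreb2, followed by Vpreb1 (0.21). Igll1 was nearest to Vpreb1 (0.25), then to Drc7 (0.30) and Enpep (0.30), which encodes the BP-1 antigen of pre-B cells. Dntt had Vpreb2 (0.20), Drc7 (0.24) and Arpp21 (0.36) as neighbours. Drc7 measured 28.3 CPM in flox/WT proBpreB cells and 0.0926 CPM in immature ones, below the limit of 3 counts, so its profile is loosely fixed. Arpp21, at 0.148 CPM in mature flox/WT cells, has the same limit.

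The other 3 genes had other neighbours. Those of Rag1 were Fxyd6 (0.35), Lrrc10b (0.38) and Ankle1 (0.42), and those of Rag2 were Heyl (0.47), Gfra2 (0.49) and Slc12a3 (0.50), while Rag1 and Rag2 were 0.60 from each other. After the proBpreB stage the highest group mean was 0.169 CPM for Fxyd6 and 0.400 CPM for Lrrc10b. These are near or below the limit of 3 counts, so both profiles are loosely fixed. Nearest to Vpreb3 were Rgs2, a regulator of G protein signalling, at 0.21, Aox2 at 0.23 and Emid1 at 0.23, and its distance to the other 6 genes was 1.91 to 2.47. Rgs2 measured 389, 275 and 65.0 CPM in proBpreB, immature and mature cells of flox/WT mice, against 264, 395 and 81.7 CPM with flox/flox, the same order as Vpreb3 within each genotype. Aox2 did not exceed 1.12 CPM in any group mean.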

How the data were processed

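RNA of 24 libraries (8 mice, 3 populations) went through the low-input SMARTer Universal kit, per the labels' protocols. HISAT2, featureCounts, Trim Galore, FastQC, CASAVA and DESeq2, with build mm10, are named in the submitters' processing notes, without versions, settings, annotation or strand use. The authors deposited raw counts per gene symbol, which were used as deposited; a second, normalised table was not used. Totals per library were 7850186 to 11863949. The members and gene lists were chosen with earlier results of these data known.

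The main test was that of edgeR 4.0.16 under R 4.3.3 (TMM factors 0.887 to 1.15, filterByExpr on 6 groups, robust quasi-likelihood fit, 18 residual degrees of freedom), with p-values adjusted by Benjamini-Hochberg over 12850 genes within each comparison at 0.05. The 12 comparisons were 3 between genotypes, 4 between neighbouring stages, 3 differences of genotype effects and 2 of mature with proBpreB cells, the last 2 added after the data were seen. Ratios were tested by two-sided exact permutation over 70 assignments (scipy 1.17.1) where both genes had at least 10 counts in each library of a stage. Coding sequences were aligned with Biopython 1.88, with GENCODE M21 transcripts of GRCm38. The test was tested on simulated data with known changes.

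Named genes were the 7 members, the 3 genes of nearest profile to each (unnamed clones left out), and up to 4 passing members of each list per genotype comparison, largest change first (some genes that this rule named are left out of the text); Cd79a, Atm, Xrcc6 and Lig4 were chosen after their values were seen. The labels give the same mouse for the 3 stages; the main fit holds no mouse term, and the mouse as a block is an alternative. Within a mouse, correlations of deviations from group means were -0.284 to 0.372 over 24 pairs (16 above 0.1). Genotypes share only a replicate number. Alternatives were RLE size factors, no filter, DESeq2 1.42.0, a fit of only the groups compared, a stricter filter (10 CPM in 4 libraries), limma-voom (limma 3.58.1) with the mouse as a random block, a replicate block (the mouse for stages and differences of genotype effects, the replicate number for genotypes) and each replicate left out. Counts of libraries within a group differed by at least 5.82 chi-square units per degree of freedom, so no library was taken as a repeat. PCR copies were not marked, so counts may include them. The SD and SE values hold the spread between mice as well as counting error.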

Additional observations from a re-analysis of the deposited data

Results flagged for a closer look

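The genotype effect on Vpreb3 differed between populations, by 1.58 on the log2 scale between immature and proBpreB cells and by -0.90 between mature and immature cells, each in a test of the difference itself (edgeR adjusted p = 7.71e-06 and 0.00435). The genotype effect on Rag2 differed by 1.64 between mature and proBpreB cells (adjusted p = 0.0242), a call lost in 4 of 23 alternatives, limma-voom among them (adjusted p = 0.0806).

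Of 42 groups of 4 libraries screened, 5 had 1 library far from the other 3, where chance gives about 1 in 20. These were Vpreb2 in flox/WT proBpreB cells (replicate 3 at 117 CPM), Rag2 in the same library (210 CPM), Igll1 in flox/WT mature cells (replicate 1 at 11.1 CPM), Vpreb3 in flox/flox proBpreB cells (replicate 1 at 740 CPM) and Rag1 in flox/WT mature cells (replicate 3 at 3.11 CPM).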

How the results depend on the processing

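Of 84 values of the 7 genes over 12 comparisons, 57 kept their direction and their side of the threshold in every alternative run, and 0 of the 43 called ones reversed. The number of the 7 genes called moved as follows. Between genotypes in proBpreB cells it was 0, and became 2 with only the groups compared, 1 in limma-voom and 0 to 3 with 1 replicate left out. In immature cells it was 4, and became 1 with no filter, 1 in limma-voom and 1 to 4 with 1 replicate left out. In mature cells it was 2, and became 1 in limma-voom and 2 to 3 with 1 replicate left out. Between immature and mature flox/flox cells it was 2, and 1 to 3 with 1 replicate left out. For the difference of genotype effects between mature and immature cells it was 1, and became 2 in DESeq2 and 1 to 2 with 1 replicate left out. For that between mature and proBpreB cells it was 1, and became 2 with only the groups compared, in DESeq2 and with the replicate block, and 0 to 2 with 1 replicate left out. The cause was not tested.

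Reversed values were all uncalled. In limma-voom the mature against immature difference of Vpreb2 was -0.11 and the mature against proBpreB difference of Dntt 0.14. With 1 replicate left out, the genotype effect on Rag2 in immature cells ran from -0.36 to 0.37, and differences of genotype effects ran from -0.38 to 0.62 (Vpreb2, immature against proBpreB), -0.08 to 0.65 (Rag2, immature against proBpreB), -0.46 to 0.15 (Vpreb1, mature against immature), -0.24 to 0.52 (Vpreb2, mature against immature), -0.18 to 0.63 (Vpreb2, mature against proBpreB) and -0.42 to 0.21 (Dntt, mature against proBpreB). Genotype differences of log2 ratios in immature cells ran from -0.23 to 0.29 (Vpreb1 to Igll1), -0.32 to 0.13 (Dntt to Igll1) and -0.27 to 0.35 (Vpreb3 to Igll1), and 0 of 12 ratios passed in any of 26 alternatives.

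Calls over all genes moved beyond 1.5 times from 788 to 493 without proBpreB flox/WT replicate 4, from 2096 to 1296 in mature cells with only the groups compared, and from 393 to 599 in DESeq2 for the mature against proBpreB difference. With the replicate block, the calls that changed were Igll1 (1.15, adjusted p = 0.068) and Dntt (0.95, adjusted p = 0.0436) between genotypes in immature cells, Vpreb1 between mature and immature flox/flox cells (0.90, adjusted p = 0.0166) and Vpreb3 (0.72, adjusted p = 0.0113), and it changed no other call of the 7 genes. Depth limits Vpreb2 after the proBpreB stage, at 1 to 28 counts per library.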
